A study of Mus musculus with 12 samples.

Results

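The genes described here encode NF-κB subunits, proteins that restrain them in a feedback loop, and nuclear IκB family proteins that act with them. They were chosen by name, with earlier results of these data known. The choice holds the subunits *Nfkb1*, *Nfkb2*, *Rel* and *Relb*, the IκB family genes *Nfkbia*, *Nfkbie*, *Nfkbiz* and *Bcl3*, and *Tnfaip3* with its partner *Tnip1*. Of these 10 genes, 9 were measured through 18 probe sets, out of 18193 genes in the series, and *Nfkb1* was not analysed here.

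RNA of whole mouse skin had been hybridised to 12 single-colour Affymetrix arrays, 3 in each of 4 groups. Skin came from Ahr-/- mice (AhR KO), which lack the ligand-activated transcription factor AhR in every cell, and from Ahr+/- littermates (AhR HET), which keep a single copy, so no group was wild type. In each genotype 1 group was untreated (day 0) and 1 had been treated daily on shaved back skin with Aldara cream containing imiquimod (IMQ), an agonist of Toll-like receptor 7, until day 2. The untreated groups received no cream, so imiquimod, its vehicle and the application itself cannot be told apart, and the labels do not give the age of the mice. Values were log2 signals from robust multi-array averaging (RMA), and a signal difference of 1 is therefore a doubling. In whole skin, fewer cells of a type and less RNA per cell cannot be told apart.

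NF-κB proteins are dimeric transcription factors that are held inactive in the cytoplasm by IκB proteins. Receptors for tumour necrosis factor, interleukin 1 and microbial products activate IκB kinase, IκB is then degraded, and the freed dimers enter the nucleus and induce inflammatory genes together with their own inhibitors. In skin the pathway runs in keratinocytes as well as in infiltrating leukocytes, and variants near several of its feedback genes are associated with psoriasis.

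Because these genes are known as NF-κB targets themselves, their promoters are shown first. RefSeq promoter windows (GRCm38.p6, 250 bases before to 50 bases after each start) were given for 7 of the genes, in 10 windows. The 10-base κB consensus motif, searched on both strands with overlapping matches merged, was found in all 7 genes and in 9 of their 10 windows, whereas 8.46% of all 32851 windows held it. *Nfkb1*, *Relb* and *Nfkbiz* had no entry in the table. Of 11 distinct matches the one nearest to the start is printed for each gene, in capitals with 10 bases on either side and 5′ to 3′ on the gene's strand.
Nfkb2 (chr19:46304716-46304745, + strand): ggggccgaaaGGGGCTTTCCcggctggagc
Rel (chr11:23771041-23771071, − strand): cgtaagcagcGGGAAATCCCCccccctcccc
Nfkbia (chr12:55492657-55492686, − strand): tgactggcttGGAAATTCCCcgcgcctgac
Nfkbie (chr17:45555584-45555613, + strand): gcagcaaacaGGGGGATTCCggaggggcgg
Bcl3 (chr7:19822734-19822763, − strand): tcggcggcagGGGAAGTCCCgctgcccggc
Tnfaip3 (chr10:19015403-19015432, − strand): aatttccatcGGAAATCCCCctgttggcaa
Tnip1 (chr11:54962977-54963008, − strand): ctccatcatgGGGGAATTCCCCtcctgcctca

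The matches of *Rel*, *Nfkbia*, *Nfkbie*, *Tnfaip3*, *Tnip1* and *Nfkb2* lay before the start, between position -106 for the first base in *Nfkbie* and position -2 for the last base in *Nfkb2*, and that of *Bcl3* lay at positions 3 to 12 after it. A match is a stretch of letters and not a measured binding site, since no binding was assayed. For *Rel*, a subunit gene called higher with IMQ in both genotypes, and *Nfkbia*, an inhibitor gene called higher in AhR KO skin alone, the 250 bases before the start are given with the match in capitals.
Rel (chr11:23770970-23771219, − strand): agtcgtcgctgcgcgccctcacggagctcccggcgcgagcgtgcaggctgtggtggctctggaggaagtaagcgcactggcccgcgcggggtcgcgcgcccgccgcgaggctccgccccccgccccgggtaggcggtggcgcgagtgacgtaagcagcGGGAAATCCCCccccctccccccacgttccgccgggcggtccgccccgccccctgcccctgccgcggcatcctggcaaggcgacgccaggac
Nfkbia (chr12:55492648-55492897, − strand): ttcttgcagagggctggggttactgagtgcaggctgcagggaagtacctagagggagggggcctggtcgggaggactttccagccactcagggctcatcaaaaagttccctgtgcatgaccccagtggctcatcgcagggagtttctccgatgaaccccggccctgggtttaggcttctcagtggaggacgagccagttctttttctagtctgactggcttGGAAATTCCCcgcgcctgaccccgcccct

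Some arrays stood apart. Replicate 2 of untreated AhR HET skin had a mean signal of 12.2 over 16 hair follicle growth genes, against 5.50 to 8.29 on the other arrays. That array was the lowest of its group for 7 of the 9 genes described here. Replicates 1 and 3 of its group, at 8.06 and 8.29, also lay above the untreated AhR KO arrays, at 5.82 to 7.18. With IMQ 7 of the 16 were called lower in AhR HET and 0 in AhR KO skin, against 3.83% and 12.1% of all genes. The part of this difference in the values of the 9 genes was not tested. On replicates 1 and 2 of IMQ-treated AhR KO skin the 3′ probe set of *Gapdh* exceeded the 5′ set by 1.17 and 1.52, against 0.14 to 0.53 on the other arrays, a measure of RNA integrity. Replicate 1 of IMQ-treated AhR HET skin had a mean of 9.60 over 8 neutrophil markers, against 8.69 and 8.60 on replicates 2 and 3. The *Ahr* signal was 11.3 to 11.4 on the untreated AhR KO arrays and 10.1 to 11.3 on the untreated AhR HET arrays, and since the sources used here do not place its probes relative to the deleted part, it does not check the genotype. The skin label held: *Krt14* and *Krt5*, keratins of basal keratinocytes, had group means of 13.1 to 14.7.

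The first question was how these genes responded to 2 days of IMQ in each genotype. In AhR HET skin 3 of the 9 genes rose and none fell: *Nfkbiz* 4.86-fold, *Rel* 3.46-fold and *Bcl3* 2.19-fold. In AhR KO skin 4 rose and none fell: *Bcl3* 4.23-fold, *Nfkbiz* 3.36-fold, *Rel* 2.44-fold and *Nfkbia* 1.81-fold. A change was called at a Benjamini-Hochberg adjusted p under 0.05 over all genes, from limma's moderated test, together with a fold of at least 1.5. Over all genes tested 5.22% were called higher and 3.83% lower in AhR HET skin, and 10.6% were called higher and 12.1% lower in AhR KO skin. The rank product of the methods was held to a stricter threshold, an estimated share of false calls under 0.01 with the same fold minimum. It called 1 of the 9 genes higher in AhR HET skin, *Nfkbiz* (0.781% of all genes), and 0 in AhR KO skin (0.995%). Its counts and those of limma therefore differ in threshold as well as in method. The median log2 difference of the 9 genes was 0.48 in AhR HET and 0.51 in AhR KO skin, against -0.01 and 0.07 over all genes, and 7 and 9 of them lay above 0, where 49.0% and 57.1% of all genes did. Treated and untreated arrays did not overlap for 4 genes in AhR HET skin (29.8% of all genes) and for 7 in AhR KO skin (42.7%).

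**Figure D1:**
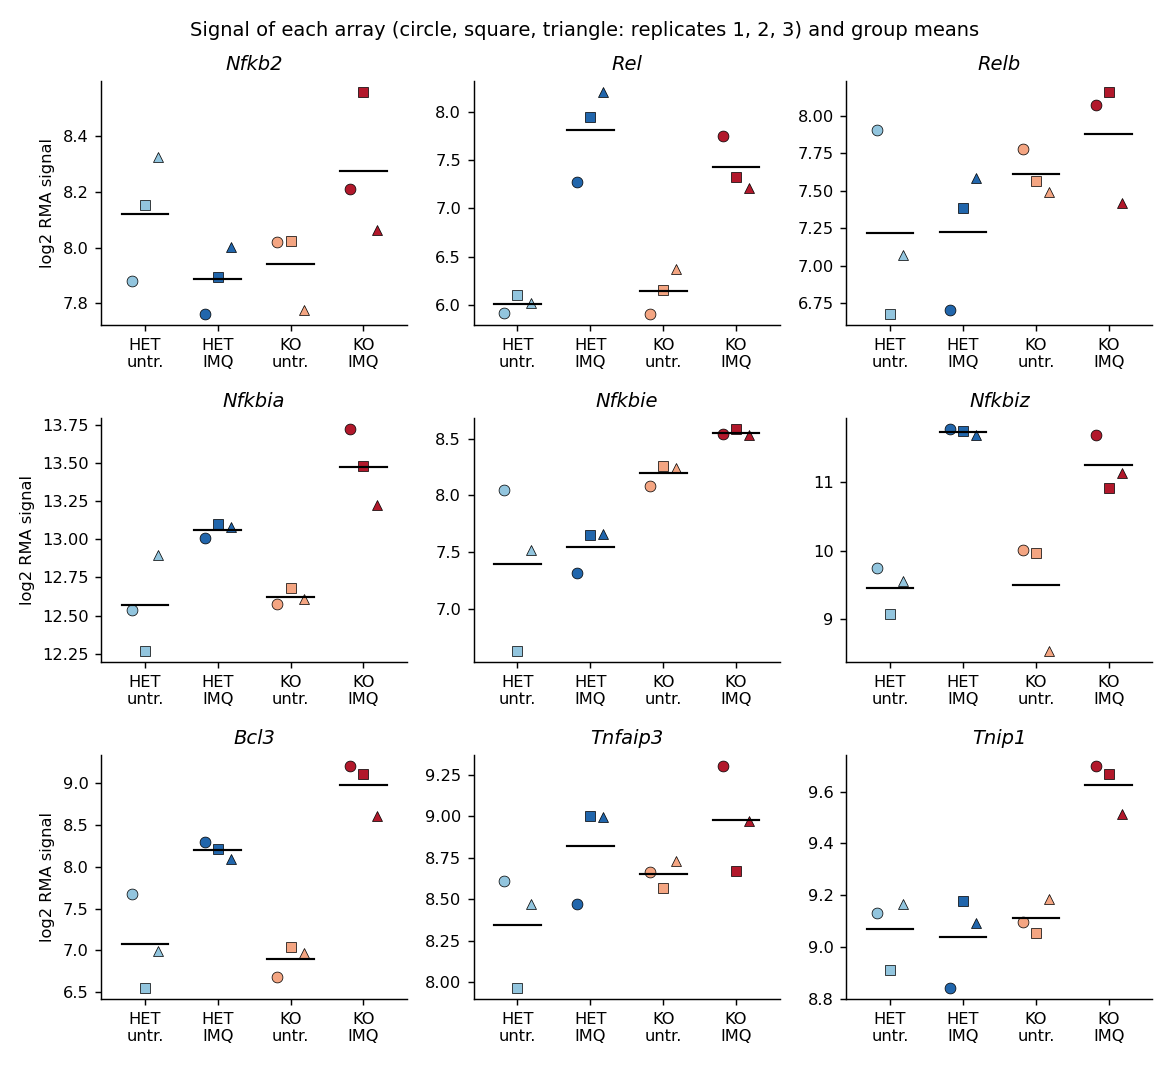
Log2 RMA signal (vertical axis, a separate scale in each panel that does not start at 0) of the 9 genes in the 4 groups, untreated (untr.) and IMQ-treated, of AhR HET and AhR KO skin. Circle, square and triangle are replicates 1, 2 and 3 and the bar is the mean of 3 arrays; *Rel*, *Nfkbiz* and *Bcl3* lie higher on every treated array than on any untreated array of either genotype.

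Of the subunits, *Rel* encodes c-Rel, a transactivating subunit abundant in leukocytes. Its signal was 5.92, 6.10 and 6.02 on the untreated and 7.28, 7.95 and 8.202 on the treated AhR HET arrays. In AhR KO skin it was 5.91, 6.16 and 6.37 without and 7.75, 7.33 and 7.22 with treatment. All 6 treated arrays thus lay above all 6 untreated arrays, and the treated arrays of the 2 genotypes overlapped. The log2 difference was 1.79 ± 0.23 (SE, n = 3 and 3; adjusted p = 0.000482) in AhR HET and 1.29 ± 0.23 (adjusted p = 0.00134) in AhR KO skin. With replicate 3 as the sole treated AhR KO array the second value was 1.07 (adjusted p = 0.0735), the lone array being assumed to vary like the others.

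*Nfkb2* encodes p100, which both restrains dimers and is processed into the subunit p52. Its signal went from 7.88, 8.15 and 8.33 to 7.76, 7.89 and 8.00 in AhR HET skin, and from 8.02, 8.02 and 7.78 to 8.21, 8.56 and 8.06 in AhR KO skin. The treated arrays lay below their untreated mean in AhR HET skin and above it in AhR KO skin. Neither difference was called: it was -0.23 (95% interval -0.59 to 0.13; adjusted p = 0.432) and 0.34 (-0.02 to 0.70; adjusted p = 0.155). The set used for *Nfkb2*, of the highest mean signal, is of a class whose probes can match other transcripts. Its second probe set was called higher with IMQ in AhR KO skin, by 0.73 ± 0.20 (adjusted p = 0.0184), and not in AhR HET skin (-0.12, adjusted p = 0.785). That set read 7.77, 7.53 and 7.60 on the untreated and 8.57, 8.69 and 7.85 on the treated AhR KO arrays. Most of this rise lay on treated replicates 1 and 2, which had the large *Gapdh* 3′/5′ difference.

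*Relb* encodes the partner of p52 in the alternative pathway. Its signal ranged from 6.68 to 7.90 on the untreated and from 6.71 to 7.59 on the treated AhR HET arrays, and from 7.49 to 7.78 and from 7.42 to 8.16 in AhR KO skin. Treated and untreated arrays overlapped in both genotypes. Its log2 difference was 0.01 (95% interval -0.67 to 0.68) in AhR HET and 0.27 (-0.40 to 0.94) in AhR KO skin, and neither was called. Both intervals reach past a 1.5-fold rise, so such a change cannot be told from the spread of these arrays.

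In the IκB family, *Nfkbiz* encodes IκBζ, a nuclear protein that drives a subset of NF-κB targets in keratinocytes downstream of interleukin 17 and interleukin 36. Its signal rose from 9.74, 9.07 and 9.55 to 11.77, 11.74 and 11.69 in AhR HET skin. In AhR KO skin it rose from 10.01, 9.96 and 8.53 to 11.69, 10.92 and 11.14. The treated AhR HET arrays lay close together. None of the treated AhR KO arrays reached them, but the highest, at 11.6889, was nearly equal to the lowest AhR HET array, at 11.6933. The log2 difference was 2.28 ± 0.34 (adjusted p = 0.00141) in AhR HET skin, the largest of the 9 genes there, and 1.75 ± 0.34 (adjusted p = 0.00267) in AhR KO skin. Its probe sets differed: a second set was called in AhR HET skin (1.92, adjusted p = 0.0394) and not in AhR KO skin (0.89, adjusted p = 0.266), and the remaining set in neither (1.17 and 1.21, adjusted p = 0.133 and 0.0821). With the mean of the 3 sets the AhR KO value was 1.28 (adjusted p = 0.0529), and with replicate 3 as the sole treated AhR KO array it was 1.64 (adjusted p = 0.0789).

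*Bcl3* encodes an atypical nuclear IκB that acts with p50 and p52 homodimers. The untreated signal was 7.67, 6.54 and 6.996 in AhR HET and 6.68, 7.04 and 6.96 in AhR KO skin. After IMQ it was 8.29, 8.22 and 8.09 in AhR HET and 9.20, 9.12 and 8.61 in AhR KO skin. The 4 groups fell in 3 levels without overlap: both untreated groups, then treated AhR HET, then treated AhR KO. The log2 difference was 1.13 ± 0.25 (adjusted p = 0.0133) in AhR HET and 2.08 ± 0.25 (adjusted p = 0.000102) in AhR KO skin. The AhR HET call was lost without replicate 1 of the treated AhR HET arrays (1.08, adjusted p = 0.0549) and when those 2 groups were compared alone (adjusted p = 0.0621), while the AhR KO call held with replicate 3 as the sole treated array and with the *Gapdh* difference as a covariate (adjusted p of at most 0.0194 over the settings of the limma test).

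*Nfkbia* encodes IκBα, the classical inhibitor that is rapidly resynthesised after activation. Its signal rose from 12.53, 12.27 and 12.90 to 13.01, 13.10 and 13.08 in AhR HET skin, and from 12.58, 12.68 and 12.61 to 13.72, 13.48 and 13.23 in AhR KO skin. Treated arrays lay above untreated arrays in both genotypes. The AhR HET difference of 0.49 ± 0.17 was not called (adjusted p = 0.0897), and the AhR KO difference of 0.85 ± 0.17 was (adjusted p = 0.00311). The 5 probe sets of the gene gave differences of 0.49 to 0.89 in AhR HET skin, with 2 called, and of 0.80 to 1.67 in AhR KO skin, with all 5 called. Their mean was called in AhR HET skin (0.70, adjusted p = 0.0285), as was the gene's main set without replicate 3 of the untreated AhR HET arrays (0.66, adjusted p = 0.0370). The AhR KO call was lost with the *Gapdh* 3′/5′ difference as a covariate (0.63, adjusted p = 0.0712) and with replicate 3 as the sole treated AhR KO array (0.60, adjusted p = 0.141).

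*Nfkbie* encodes IκBε, a slower member of the same feedback. In AhR HET skin its signal was 8.04, 6.62 and 7.52 without and 7.31, 7.65 and 7.66 with IMQ. In AhR KO skin it was 8.08, 8.26 and 8.24 without and 8.54, 8.58 and 8.53 with IMQ. Treated and untreated arrays overlapped in AhR HET and not in AhR KO skin. Neither difference was called, at 0.15 (95% interval -0.44 to 0.73) and 0.36 (-0.22 to 0.94).

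*Tnfaip3* encodes A20, a ubiquitin-editing enzyme that shuts off signalling upstream of IκB kinase, and *Tnip1* encodes ABIN1, which binds A20. *Tnfaip3* ranged from 7.96 to 8.61 on the untreated and from 8.47 to 9.002 on the treated AhR HET arrays, and from 8.57 to 8.73 and from 8.67 to 9.30 in AhR KO skin. The groups overlapped in both genotypes, and differences of 0.48 (adjusted p = 0.185) and 0.33 (adjusted p = 0.284) were not called. The second probe set of *Tnfaip3* gave 0.58 (adjusted p = 0.0296, under the fold minimum) in AhR HET and -0.01 (adjusted p = 0.962) in AhR KO skin. *Tnip1* went from 9.13, 8.91 and 9.17 to 8.84, 9.18 and 9.09 in AhR HET skin, and from 9.10, 9.05 and 9.19 to 9.70, 9.67 and 9.51 in AhR KO skin. The 3 treated AhR KO arrays lay above the other 9. The *Tnip1* difference was -0.03 (95% interval -0.33 to 0.26) in AhR HET skin. It was 0.51 ± 0.14 in AhR KO skin, where the adjusted p was 0.0140 but the fold of 1.43 was under the minimum.

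**Figure D2:**
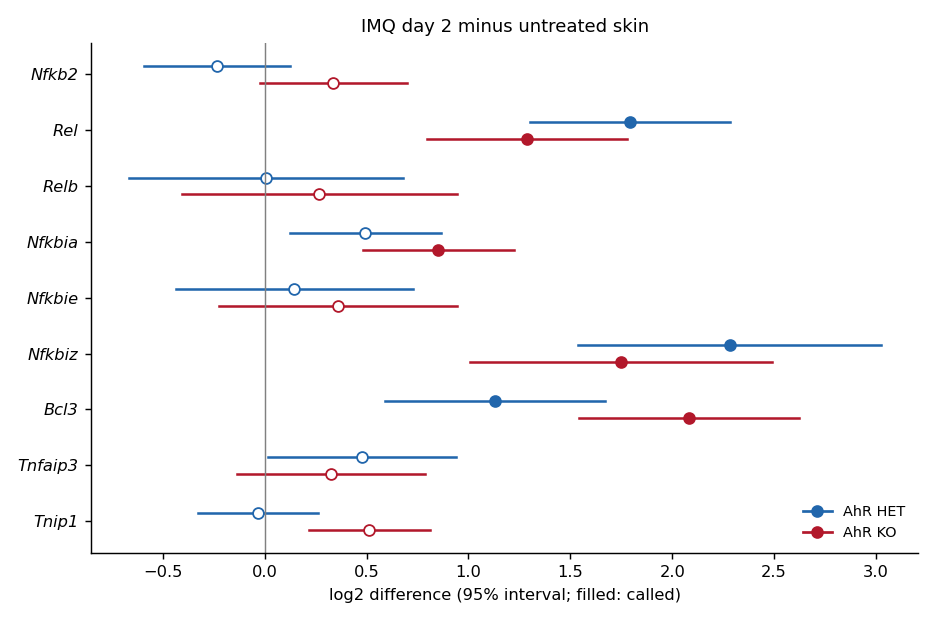
Log2 difference of IMQ-treated minus untreated skin (horizontal axis) for the 9 genes in AhR HET (blue) and AhR KO skin (red), with 95% intervals from limma over 3 arrays a group. Filled points passed the test and the fold minimum: *Rel*, *Nfkbiz* and *Bcl3* in both genotypes and *Nfkbia* in AhR KO skin.

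The second question was whether AhR KO and AhR HET skin differed on day 2 of IMQ. *Tnip1* was the single gene of the 9 called, 1.5-fold higher in AhR KO skin (log2 difference 0.59 ± 0.14, adjusted p = 0.0316), where 2.12% of all genes were called higher and 1.86% lower. The arrays of the 2 genotypes did not overlap for 6 of the 9 genes, against 33% of all genes: *Bcl3*, *Nfkb2*, *Nfkbia*, *Nfkbie* and *Tnip1* lay higher in AhR KO skin and *Nfkbiz* lay lower. The closest *Nfkbiz* arrays of the genotypes were nearly equal, at 11.6889 and 11.6933. The median log2 difference was 0.41 over the 9 genes and 0.06 over all genes.

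The *Tnip1* call sat at the fold minimum and was not stable. It was lost without any 1 of the treated AhR HET replicates 1, 2 and 3 (0.49, 0.66 and 0.62, adjusted p = 0.0985, 0.0772 and 0.117), without treated AhR KO replicate 1 or 2 (0.55 and 0.57, adjusted p = 0.0942 and 0.1175), and without untreated AhR KO replicate 1 or 2 (adjusted p = 0.0526 and 0.0527), which enter through the shared spread. With the *Gapdh* 3′/5′ difference as a covariate the value was 0.46 (adjusted p = 0.571), and with replicate 3 as the sole treated AhR KO array it was 0.48 (adjusted p = 0.495). With array weights it was 0.57, under the fold minimum.

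*Nfkbie* and *Bcl3* came close to a call. *Nfkbie* was 2.02-fold higher in AhR KO skin (1.01 ± 0.27, 95% interval 0.43 to 1.59, adjusted p = 0.0555), and *Bcl3* was 1.71-fold higher (0.78 ± 0.25, 0.24 to 1.32, adjusted p = 0.1003). Both were called without untreated AhR HET replicate 1 (adjusted p = 0.0154 and 0.0343) and without replicate 2 (0.00286 and 0.0369), arrays that do not enter the difference itself but the shared estimate of the spread. With the *Gapdh* 3′/5′ difference as a covariate neither was called. The lowest value over the settings of the limma test was 0.84 for *Nfkbie*. For *Bcl3* it was 0.41, with replicate 3 as the sole treated AhR KO array. The second probe set of *Nfkbie* gave 0.66 (adjusted p = 0.178). The differences of *Nfkbia* (0.41, adjusted p = 0.192) and *Nfkb2* (0.39, adjusted p = 0.202) were not called, though the second *Nfkb2* probe set was (0.83 ± 0.20, adjusted p = 0.0400). That set read 7.41, 7.63 and 7.57 in treated AhR HET and 8.57, 8.69 and 7.85 in treated AhR KO skin. Its difference thus came mostly from AhR KO replicates 1 and 2, which had the large *Gapdh* 3′/5′ difference. *Relb* was 0.66 higher (-0.02 to 1.33) and *Tnfaip3* 0.16 higher (-0.30 to 0.62), and the second probe set of *Tnfaip3* was 0.52 lower in AhR KO skin (adjusted p = 0.0778).

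*Nfkbiz* and *Rel* went the other way. *Nfkbiz* was 1.402-fold lower in AhR KO skin (-0.49, 95% interval -1.23 to 0.25, adjusted p = 0.438) and *Rel* 1.30-fold lower (-0.38, -0.87 to 0.11, adjusted p = 0.363), and neither was called. The other probe sets of *Nfkbiz* gave -0.74 and -0.05 (adjusted p = 0.470 and 0.961).

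**Figure D3:**
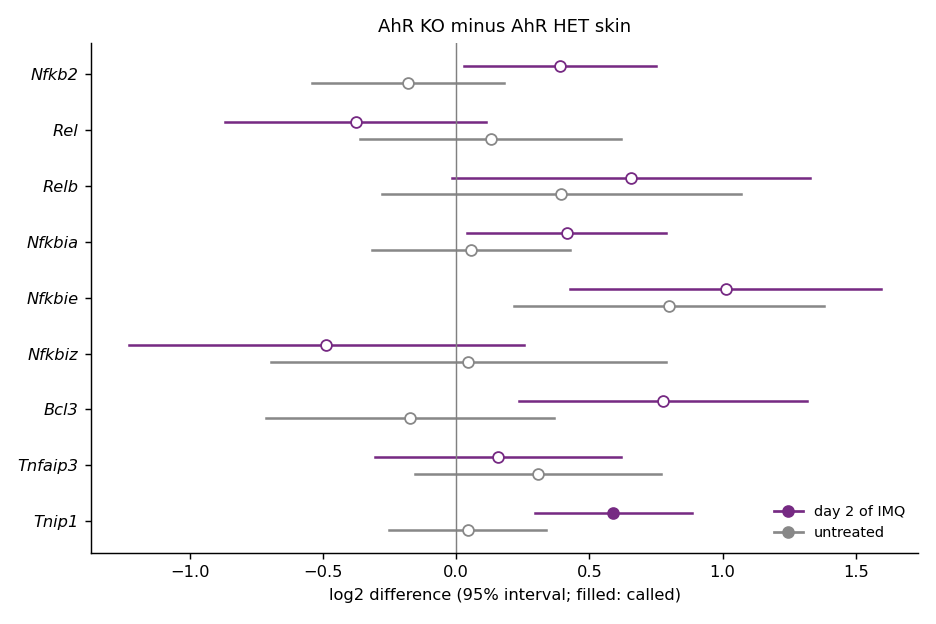
Log2 difference of AhR KO minus AhR HET skin (horizontal axis) on day 2 of IMQ (purple) and without treatment (grey), with 95% intervals from limma over 3 arrays a group. *Tnip1* on day 2 is the single filled point, which marks a call, and *Rel* and *Nfkbiz* on day 2 lie left of 0.

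Without treatment the genotypes were compared to see whether any such difference preceded the cream. None of the 9 genes was called, against 0.0055% of all genes in either direction. By limma 1 of the 9 had an unadjusted p under 0.05, a share not computed over all genes. The rank product called none of the 9, where it called 59 of all 18193 genes. *Nfkbie* was the single gene whose arrays did not overlap (8.81% of all genes), with a log2 difference of 0.80 ± 0.27 (95% interval 0.22 to 1.38, adjusted p = 0.719). Without untreated AhR HET replicate 1, the highest array of its group, the *Nfkbie* difference was 1.12 (adjusted p = 0.0413). Without replicate 2, the lowest array of that group, it was 0.41. The second probe set of *Nfkbie* gave 0.50 (adjusted p = 0.783), and its arrays overlapped. The other 8 genes differed by -0.18 to 0.39.

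The change with IMQ in AhR KO skin was then set against that in AhR HET skin by the interaction term. No gene of the 9 passed, where 1.32% of all genes did. By limma 3 of the 9 had an unadjusted p under 0.05, a share not computed over all genes. The 95% interval of the term left out 0 for *Bcl3* (0.95 ± 0.35, adjusted p = 0.189), *Nfkb2* (0.57 ± 0.23, adjusted p = 0.232) and *Tnip1* (0.55 ± 0.19, adjusted p = 0.170). With array weights *Bcl3* (1.01, adjusted p = 0.0326) and *Tnip1* (0.62, adjusted p = 0.0365) were called. *Nfkbiz* (-0.53, 95% interval -1.58 to 0.52) and *Rel* (-0.51, -1.20 to 0.19) had the lowest values. A call in 1 genotype alone, as for *Nfkbia*, was therefore not shown to differ between genotypes.

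**Figure D4:**
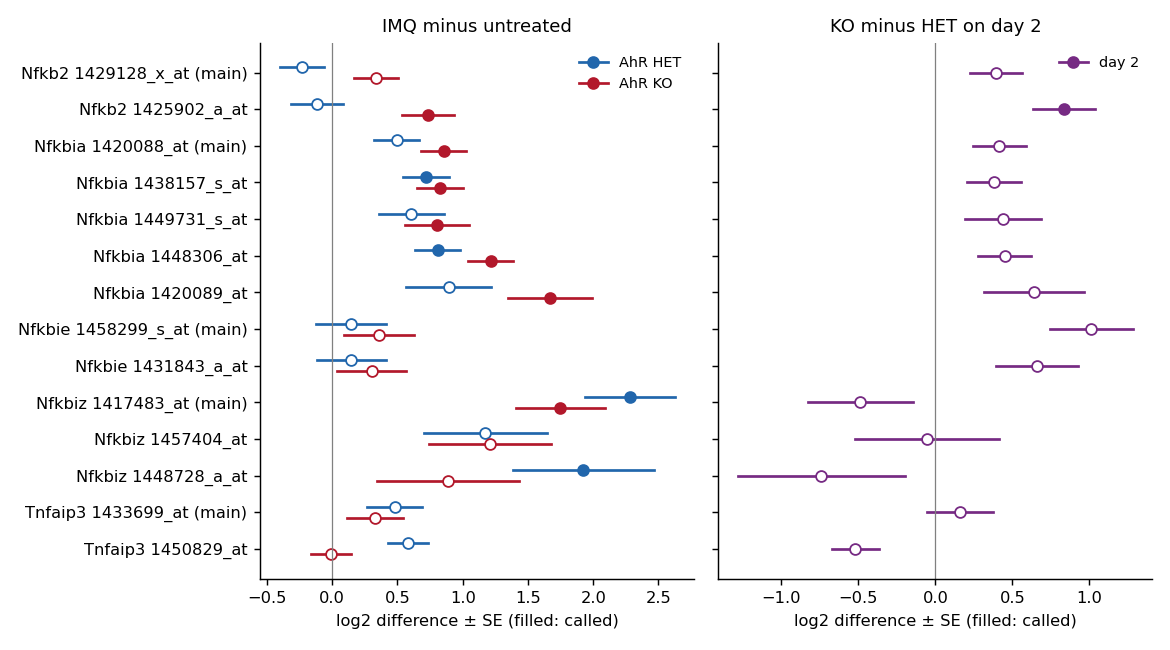
Log2 difference (horizontal axis) of each probe set of the 5 genes that have more than 1, with SE over 3 arrays a group: IMQ minus untreated in AhR HET (blue) and AhR KO skin (red) on the left, AhR KO minus AhR HET on day 2 (purple) on the right. Filled points were called in a test over all probe sets annotated to a single gene; all 5 *Nfkbia* sets were called in AhR KO skin, the sets of *Nfkb2* and *Nfkbiz* differed in their calls, and those of *Tnfaip3* lie on opposite sides of 0 on day 2.

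The rest of the pathway was read from lists of named genes, whose counts stand against the shares of all genes called higher and lower: 5.22% and 3.83% in AhR HET skin, 10.6% and 12.1% in AhR KO skin, and 2.12% and 1.86% between genotypes on day 2. Among 8 other NF-κB, IκB and IκB kinase genes, *Nfkbid*, which encodes the nuclear protein IκBNS, was the single gene called. For the change with IMQ in AhR KO skin this share of 1 in 8 lay near the background. *Nfkbid* was 6.43, 6.42 and 6.59 in treated AhR HET and 7.74, 8.78 and 7.63 in treated AhR KO skin, with no overlap. It rose 3.601-fold in AhR KO skin (adjusted p = 0.000218) and was 2.97-fold higher there than in AhR HET skin on day 2 (adjusted p = 0.00458). In AhR HET skin its difference of 0.65 was not called (adjusted p = 0.121), nor was that of *Ikbke*, an IκB kinase homologue (0.67, adjusted p = 0.176).

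Of 20 adaptors, kinases and ligases upstream of IκB kinase, 1 rose in AhR HET skin, and 3 rose and 1 fell in AhR KO skin, so that the AhR HET share of 1 in 20 lay near the background. *Myd88*, the adaptor of Toll-like and interleukin 1 receptors, rose in both (1.69-fold and 2.15-fold). *Traf1* rose 2.28-fold and *Birc3* 1.5-fold in AhR KO skin, both signal transducers of tumour necrosis factor receptors, and *Traf5* fell 1.70-fold. *Traf1* was also 3.16-fold higher in AhR KO than in AhR HET skin on day 2 (adjusted p = 0.00948), the 1 gene of this list called there. Several of these calls did not hold when single arrays were left out. The *Myd88* call in AhR HET skin was lost on leaving out 10 of the 12 arrays in turn (adjusted p = 0.0517 to 0.147 where lost), all but untreated AhR HET replicate 1 and treated AhR KO replicate 3. The *Birc3* call was lost without untreated AhR KO replicate 1 or 2, treated AhR KO replicate 1 or 3, or any 1 treated AhR HET array (adjusted p = 0.0553 to 0.159). That of *Traf1* on day 2 was lost without treated AhR HET replicate 3 (adjusted p = 0.0592) or treated AhR KO replicate 2 (adjusted p = 0.0513), and without the latter also its call in AhR KO skin (adjusted p = 0.0511).

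The 16 other negative regulators included 3 that rose in AhR HET and 2 that rose in AhR KO skin, and none was called between genotypes. The AhR KO share of 2 in 16 lay near the background of 10.6%. *Zc3h12a*, which encodes the RNase Regnase-1 that degrades cytokine transcripts, rose 4.67-fold and 3.40-fold. *Irak3*, a brake on interleukin 1 receptor kinases, rose 2.09-fold and 2.16-fold, and the linear-ubiquitin protease gene *Otulin* rose 1.6-fold in AhR HET skin. The *Irak3* call in AhR HET skin was lost without untreated AhR HET replicate 2 or 3 or any 1 treated AhR HET array (adjusted p = 0.0627 to 0.110), and that in AhR KO skin without treated AhR KO replicate 1 (adjusted p = 0.0503). The *Otulin* call was lost without untreated AhR HET replicate 3 or treated AhR HET replicate 1 or 2 (adjusted p = 0.0551 to 0.0684). On day 2 the values of *Tank* (-0.55, adjusted p = 0.195) and *Tax1bp1* (-0.55, adjusted p = 0.132) had the lowest p.

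Of 13 receptors that feed the pathway, none was called in AhR HET skin, with *Il1rl2* at 0.64 (adjusted p = 0.0518) and *Tlr4* at 0.93 (adjusted p = 0.119), and 6 rose in AhR KO skin. The largest of those were *Il1r1* (3.39-fold), *Tnfrsf1b* (2.50-fold), *Il17ra* (2.04-fold) and *Il1rap* (1.85-fold). On day 2, 3 were higher in AhR KO skin: *Il1r1* (2.84-fold), *Il17ra* (2.16-fold) and *Tlr2* (1.88-fold). The *Tlr2* call was lost on leaving out 10 of the 12 arrays in turn, all but untreated AhR HET replicates 1 and 2 (adjusted p = 0.0554 to 0.164). The *Il17ra* call on day 2 was lost on leaving out 8 of them, all but untreated AhR HET replicates 1 and 2, untreated AhR KO replicate 2 and treated AhR KO replicate 3 (adjusted p = 0.0526 to 0.186). Its call in AhR KO skin was lost without untreated replicate 1 or 3 or treated replicate 1 or 2 (adjusted p = 0.0543 to 0.0697).

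Of 8 ligands, 2 rose in AhR HET and 4 in AhR KO skin, and 3 were higher in AhR KO skin on day 2. *Il1b* was 9.95, 8.08 and 7.74 in treated AhR HET and 12.55, 12.69 and 12.81 in treated AhR KO skin, a difference of 17.0-fold (adjusted p = 0.000585). Without treated AhR HET replicate 1, the highest of its group, it was 27.3-fold. *Tnf* and *Ltb* were 2.35-fold and 2.86-fold higher there, and *Il1a* rose in both genotypes (3.67-fold and 4.09-fold).

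Of 23 well known NF-κB targets, 10 rose in AhR HET skin, 14 rose and 2 fell in AhR KO skin, and 8 were higher in AhR KO skin on day 2. The acute phase genes *Saa3* and *Lcn2* rose 165-fold and 76.6-fold in AhR HET and 299-fold and 197-fold in AhR KO skin. Without treated AhR HET replicate 1 the AhR HET folds were 105 and 47.4. On day 2 the neutrophil chemokines *Cxcl2* and *Cxcl1* were 37.5-fold and 3.24-fold higher in AhR KO skin, the gelatinase gene *Mmp9* 12.3-fold and the cytokine gene *Il6* 5.20-fold. *Cxcl2* was 10.67, 7.82 and 5.99 on the treated AhR HET arrays, a wide spread, and its fold on day 2 was 89.5 without replicate 1 and 17.6 without replicate 3 of that group. The *Il6* fold was 3.42 without the same replicate 3, and the *Cxcl1* call was lost without treated AhR HET replicate 2 or 3 or treated AhR KO replicate 1 or 2 (adjusted p = 0.0789 to 0.125). The median log2 difference of this list on day 2 was 0.64, against 0.06 over all genes. As the lists were chosen with earlier results of these data known, such contrasts with all genes are a description.

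The calls on day 2 were recomputed in 2 settings that bear on the RNA quality of treated AhR KO replicates 1 and 2, chosen for these lists after seeing the data. Over the 6 lists 16 genes were called on day 2. With the *Gapdh* 3′/5′ difference as a covariate 1 was called, *Il1b* (4.31, adjusted p = 0.0401), and with replicate 3 as the sole treated AhR KO array 1 was called, *Tnf* (1.41, adjusted p = 0.0214), where over all genes the calls went from 724 to 27 and 43. The day 2 values of the other genes named above as called lay above 0 in both settings without passing, as for *Nfkbid* (0.97 and 1.15, adjusted p = 0.278 and 0.0630), *Il1r1* (1.46 and 1.39, adjusted p = 0.175 and 0.191) and *Mmp9* (3.65 and 3.64, adjusted p = 0.0594 and 0.0668). For the change with IMQ in AhR KO skin 33 genes of the lists were called, and 21 with the covariate. Over all genes these calls went from 4130 to 2226. In AhR HET skin 16 genes of the lists were called and 15 with the covariate, where over all genes the calls went from 1646 to 1489.

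**Figure D5:**
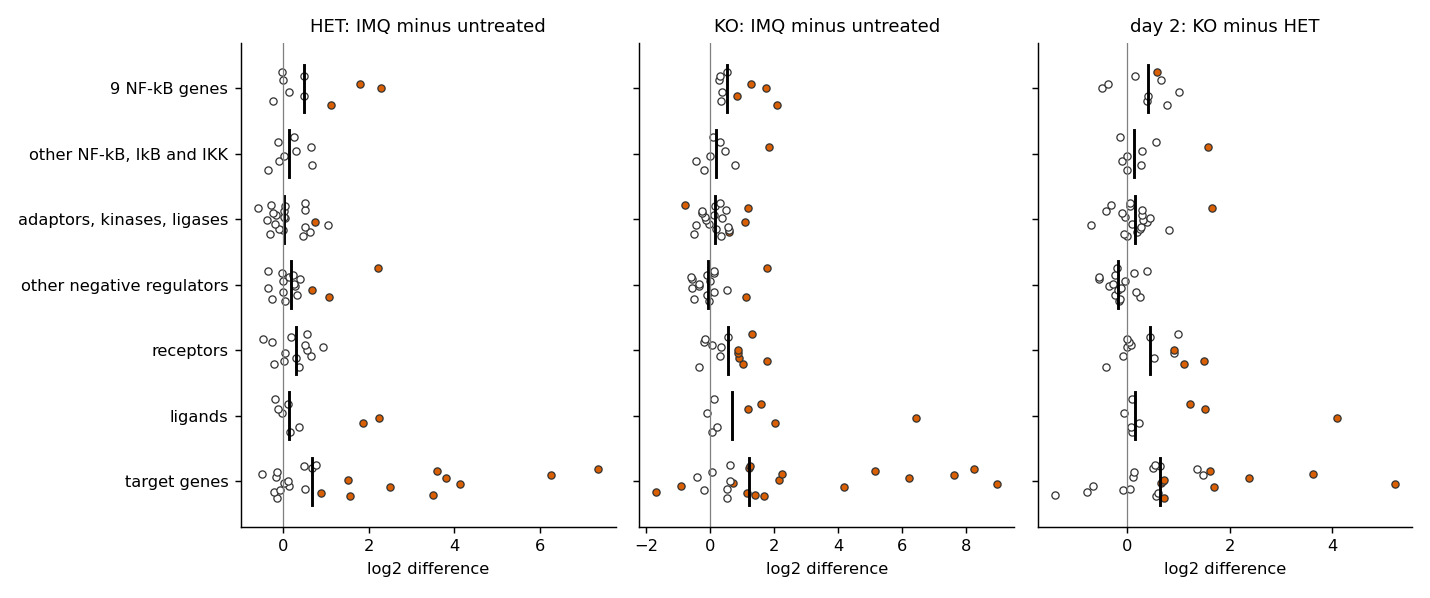
Log2 difference (horizontal axis, a separate scale in each panel) of every measured gene of 7 lists, with IMQ in AhR HET skin, with IMQ in AhR KO skin, and between AhR KO and AhR HET skin on day 2. Each point is a gene, filled points were called, and the bar is the list's median, which is highest for the target genes in all 3 panels. The lists were chosen with earlier results of these data known.

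Markers of other cell types differed in direction. Their counts stand against the shares of all genes called higher and lower. These were 5.22% and 3.83% in AhR HET skin, 10.6% and 12.1% in AhR KO skin, and 2.12% and 1.86% on day 2. The mean signal over 8 neutrophil markers was 5.42 to 5.80 on untreated AhR HET, 5.52 to 5.89 on untreated AhR KO, 8.60 to 9.60 on treated AhR HET and 10.2 to 10.3 on treated AhR KO arrays. Of the 8, 5 rose in AhR HET and 6 in AhR KO skin and 3 were higher in AhR KO skin on day 2. The highest signals were those of *S100a8* and *S100a9*, which keratinocytes also express, while *Mpo* and *Elane*, made in immature neutrophils, stayed at or below 5.04 and 5.62 on every array. Over 7 suprabasal keratinocyte markers the mean was 12.1 to 13.3 on treated AhR HET and 11.05 to 11.6 on treated AhR KO arrays, and 3 were lower in AhR KO skin on day 2. Over 7 macrophage and monocyte markers it was 10.2 to 10.7 and 10.5 to 11.1, but 1 was called higher and 1 lower in AhR KO skin on day 2: *Cd14* had group means of 9.05 in AhR HET and 12.49 in AhR KO skin, and *Adgre1* of 11.24 and 9.64. Over 8 dendritic and Langerhans cell markers the mean was 7.78 to 8.55 on untreated and 7.25 to 7.73 on treated arrays, and with IMQ 2 fell in AhR HET and 4 in AhR KO skin while none rose. Of 6 T cell markers 2 fell in each genotype and none rose, with means of 7.30 to 7.98 on untreated and 6.84 to 7.25 on treated arrays. The part of these cell types in the values of *Rel*, *Bcl3*, *Nfkbie* and *Tnip1* was not tested.

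Across the 12 arrays, the genes most like each called gene were found by Pearson correlation among 12466 genes, as a description in which the points share 4 groups. *Bcl3* was most like *Pdlim1* (r = 0.98), the C-type lectin gene *Clec4n* (r = 0.98) and the formyl peptide receptor gene *Fpr2* (r = 0.98). *Rel* was most like the glucose transporter gene *Slc5a1* (r = 0.97), *Il1f6*, which encodes interleukin 36α (r = 0.97), and *Serpinb3a* (r = 0.96). *Nfkbia* was most like *6430548M08Rik* (r = 0.98), *Tiparp* (r = 0.97) and *Ddx24* (r = 0.97), *Nfkbiz* like *Atp11b* (r = 0.96), and *Tnip1* like *Klhl40* (r = 0.94). Once group means were removed, r was 0.59 for *Rel* with *Slc5a1* and 0.93 for *Bcl3* with *Clec4n*.

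Among themselves the 9 genes did not form a single pattern. *Nfkbia* and *Bcl3* had the highest correlation over the 12 arrays (r = 0.92), followed by *Rel* and *Nfkbiz* (r = 0.86). The second pair had r = -0.19 once group means were removed, and *Nfkbie* and *Bcl3* had 0.78. *Nfkb2* had r of -0.05 to 0.60 with the other 8.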

How the data were processed

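The authors deposited log2 signals of 45101 Affymetrix mouse probe sets on 12 arrays, computed by RMA with the affy package (version not given in the sources used here). The number of arrays limits the precision. Array medians were 7.38 to 7.56, and no 2 arrays were identical. Probe sets were named through GEO's platform annotation, in which 34945 sets had 1 gene, 932 several and 9160 none. Each of 18193 genes was read from its set of the highest mean signal. The 4 group means were fitted on all 12 arrays with limma 3.58.1 in R 4.3.3 (8 residual degrees of freedom), which was tested on simulated data. Calls needed an adjusted p (Benjamini-Hochberg) under 0.05 and a fold of at least 1.5. The methods' rank product was rewritten in R as an alternative with 100 permutations. Its calls needed an estimated share of false calls under 0.01 and a fold of at least 1.5. Groups came from the labels, which do not say whether the 3 samples of a group were separate animals, so p-values measure the spread between samples, which may be technical. The members and lists were chosen with earlier results of these data known. Pathway genes are named where called (at most 4 a list and comparison, by size of the difference), otherwise the 2 of lowest p. The like genes are the 3 of highest r with a mean signal of at least 6. Settings for the pathway lists were added after seeing the data. Promoters are from RefSeq, searched with Python 3.11.15.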

Additional observations from a re-analysis of the deposited data

Results flagged for a closer look

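For 4 pathway genes named in the report the change with IMQ differed between genotypes by limma's interaction term: the value of AhR KO minus AhR HET was 4.17 for *Il1b* (adjusted p = 0.0131), 1.75 for *Il1r1* (adjusted p = 0.0276), 2.72 for *Mmp9* (adjusted p = 0.0420) and 1.49 for *Tnf* (adjusted p = 0.0174). Over all genes the calls on this term went from 241 to 12 with the *Gapdh* 3′/5′ difference as a covariate. The term of these 4 genes was not recomputed in that setting or with replicate 3 as the sole treated AhR KO array. For *Nfkb2* all 3 treated arrays lay below the untreated mean in AhR HET skin and all 3 lay above it in AhR KO skin, and the interaction term of 0.57 did not pass (adjusted p = 0.232).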

How the results depend on the processing

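In AhR HET skin 3 genes were called, and 1 with the rank product of the methods, 4 with the mean of all probe sets (adding *Nfkbia*), 2 with the groups compared alone or at an adjusted p under 0.01, and 2 to 4 without single replicates. In AhR KO skin 4 were called, 1 with replicate 3 as the sole treated AhR KO array and 0 with the rank product, 3 with the *Gapdh* covariate (without *Nfkbia*) or the mean of all probe sets (without *Nfkbiz*), and 5 with array weights or no fold minimum (adding *Tnip1*). Between genotypes on day 2, 1 was called: 2 with the mean of all probe sets, with arrays centred on the median, with a second quantile normalization or with array weights, 3 with the groups compared alone, and 0 with the *Gapdh* covariate, with replicate 3 alone, at an adjusted p under 0.01, with the rank product and with the replicate block (*Tnip1*, adjusted p = 0.0523), and 0 to 3 without single replicates. Untreated, leaving out single replicates gave 0 to 1, and for the difference of responses array weights gave 2. The replicate numbers did not pair the samples (18 correlations of same-numbered deviations, -0.18 to 0.32, 7 above 0.1), and the block changed no other count of these genes. Over all genes limma called 1646 (AhR HET), 4130 (AhR KO), 724 (day 2), 1 (untreated) and 241 (difference of responses), with 27 on day 2 under the *Gapdh* covariate and 43 with replicate 3 alone, ranges over its alternatives of 717 to 2563, 1444 to 5164, 27 to 2019, 0 to 206 and 12 to 2096, and the rank product called 218, 340, 209 and 59 in the first 4; it was not run for the difference of responses. For the pathway lists, rerun after seeing the data with the covariate, with replicate 3 alone and without single arrays only, the calls on day 2 ranged without single arrays from 1 to 5 for the receptors (3 with all arrays), 3 to 10 for the targets (8) and 0 to 2 for the adaptors (1), and were 3 throughout for the ligands.

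Of 1152 values of single genes under alternatives, 1077 kept direction and side of the threshold, 18 became called, 27 lost the call and 30 changed sign; no value that changed sign was called in either setting, and the cause was not tested. For the IMQ change in AhR HET skin these were *Relb* (-0.00396 centred, -0.00741 quantile normalized, -0.26 to 0.35 without single replicates), *Nfkbie* (-0.24 to 0.47 without single replicates) and *Tnip1* (0.000886 with the *Gapdh* covariate, -0.11 to 0.0662 without single replicates). In AhR KO skin it was *Relb* (-0.12 with the covariate, -0.20 with replicate 3 alone). On day 2 it was *Tnfaip3* (-0.18 with the mean of its sets, -0.0176 to 0.31 without single replicates). Untreated, they were *Nfkbia* (-0.0624 with array weights, -0.0937 to 0.22), *Tnip1* (-0.0450 with array weights, -0.0369 to 0.0907), *Nfkbiz* (-0.21 to 0.53) and *Bcl3* (-0.44 to 0.13), the ranges being those without single replicates. For the difference of responses they were *Relb* (-0.25 with the covariate, -0.20 with replicate 3 alone, -0.0814 to 0.53), *Nfkbie* (-0.11 to 0.60) and *Tnfaip3* (0.0179 with array weights, -0.33 to 0.0412).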
